A study of Mus musculus with 2 samples.

Results

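Tslp, Il25, Chat and Slc18a3 are 4 of the 17134 genes in the count table, and they were taken by symbol as the cytokine and acetylcholine output genes of tuft cells. All 4 were found, each in 1 row. Thymic stromal lymphopoietin, the product of Tslp, is a cytokine that epithelial cells release onto dendritic cells and innate lymphoid cells. IL-25, the product of Il25, is the cytokine through which tuft cells of the small intestine activate group 2 innate lymphoid cells. Choline acetyltransferase, the product of Chat, makes acetylcholine from choline and acetyl-CoA, and the vesicular acetylcholine transporter, the product of Slc18a3, loads acetylcholine into vesicles.

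RNA sequencing was done on cells sorted from the small intestine of naive mice by their surface EpCAM, which marks epithelium, and Siglec-F, a lectin found on intestinal tuft cells. The Spib_KO library came from mice labelled Spibfl/flVillin-cre and the WT library from mice labelled Spib+Villin-cre, with 1 library each, so both genotypes carried Villin-cre. Villin-cre expresses Cre recombinase throughout the intestinal epithelium, so deletion of Spib, which encodes an ETS family transcription factor, was not limited to tuft cells. The labels give no age or sex, and not the number of mice behind a library. The question was which tuft cell transcripts differ when the epithelium lacks Spib.

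Reads counted to genes numbered 17228665 in the Spib_KO library and 17925421 in the WT library. Spib had 48 reads in Spib_KO and 6266 in WT, so the libraries matched their labels. All 12 tuft cell markers listed, among them Dclk1, Pou2f3 and Trpm5, were detected in both libraries, and their summed level was 17929 CPM (reads scaled to a common library size) in Spib_KO and 18589 CPM in WT. With 1 library per genotype no test was possible and there was no replicate check. Genes were counted as measured if either library had at least 30 reads and at least 5 CPM for them. A measured gene was called where the bound nearest 0 of the 95% interval of its log2 ratio, Spib_KO over WT, was 1 or more away from 0, a 2-fold difference. Intervals cover counting error only. Copies made by amplification were not told apart from separate molecules, so the intervals can be too narrow even for that error. By this rule 2.33% of 10707 measured genes were called higher and 2.18% lower, and the median log2 ratio was 0.01.

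Chat and Slc18a3 share a locus, and the letters around each start are shown. They were the only members with a matching promoter sequence, so the promoters of Tslp and Il25 were not examined. On the GRCm38.p6 build Chat (gene 12647) spans 32408203 to 32465909 of chromosome 14 and Slc18a3 (gene 20508) spans 32462437 to 32464850, both on the minus strand. Slc18a3 is a gene of 1 exon and 2414 bases that lies inside the first intron of the full-length Chat transcript, and its start is 1059 bases after that of Chat. None of the 8 Chat transcripts in GENCODE has an exon that overlaps it. The libraries do not keep strand, and since the genes run the same way strand would not part them. Reads of unspliced Chat RNA and of Slc18a3 therefore cannot be told apart. Each window below runs 5′ to 3′ in the direction of the gene, from 250 bases before the RefSeq start to 30 bases after it, and capitals mark the letters GGAA on either strand, the core that ETS factors bind.
Chat, chr14:32465880-32466159, minus strand: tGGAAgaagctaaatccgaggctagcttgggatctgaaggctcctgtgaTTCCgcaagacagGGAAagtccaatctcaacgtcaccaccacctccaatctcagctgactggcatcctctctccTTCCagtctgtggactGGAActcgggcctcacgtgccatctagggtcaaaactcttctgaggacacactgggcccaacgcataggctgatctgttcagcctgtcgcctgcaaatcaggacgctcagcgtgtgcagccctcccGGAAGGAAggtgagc
Slc18a3, chr14:32464821-32465100, minus strand: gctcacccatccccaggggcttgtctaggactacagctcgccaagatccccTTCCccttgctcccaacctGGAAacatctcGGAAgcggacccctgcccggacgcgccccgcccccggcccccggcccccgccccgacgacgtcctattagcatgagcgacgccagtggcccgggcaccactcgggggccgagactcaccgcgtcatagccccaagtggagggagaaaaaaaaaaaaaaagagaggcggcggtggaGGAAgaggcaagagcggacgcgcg

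The Chat window holds 7 matches to GGAA and the Slc18a3 window 4, against a median of 3 over 32851 promoter windows of the same length. At least 1 match was present in 95.1% of those windows, so its presence does not set the pair apart. The Chat window ends with a pair of neighbouring matches that begin at bases 16 and 20 after the start. The Slc18a3 window has a match that begins at base 7 after the start and 3 that lie between 199 and 169 bases before it, at -199, -180 and -169. The longer motif GAGGAAGT, a PU-box type that contains the same core, was in neither window and in 2.82% of all windows. The octamer ATGCAAAT, the motif of POU factors such as Pou2f3, was also in neither, and 1.69% of all windows held it. Only exact matches were searched for, and shorter PU-box forms were not counted. The Slc18a3 match at base 7 lies in the letters GAGGAAGA, which differ from GAGGAAGT only in the last letter. The octamer also has near matches with 1 letter changed. These are CTGCAAAT in the Chat window and, to the octamer read on the other strand, ATTAGCAT in the Slc18a3 window. Near matches were not counted over all windows. Guanine and cytosine made up 56.1% of the Chat window and 66.4% of the Slc18a3 window, against a median of 52.5%. These matches describe letters and not binding.

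**Figure D1:**
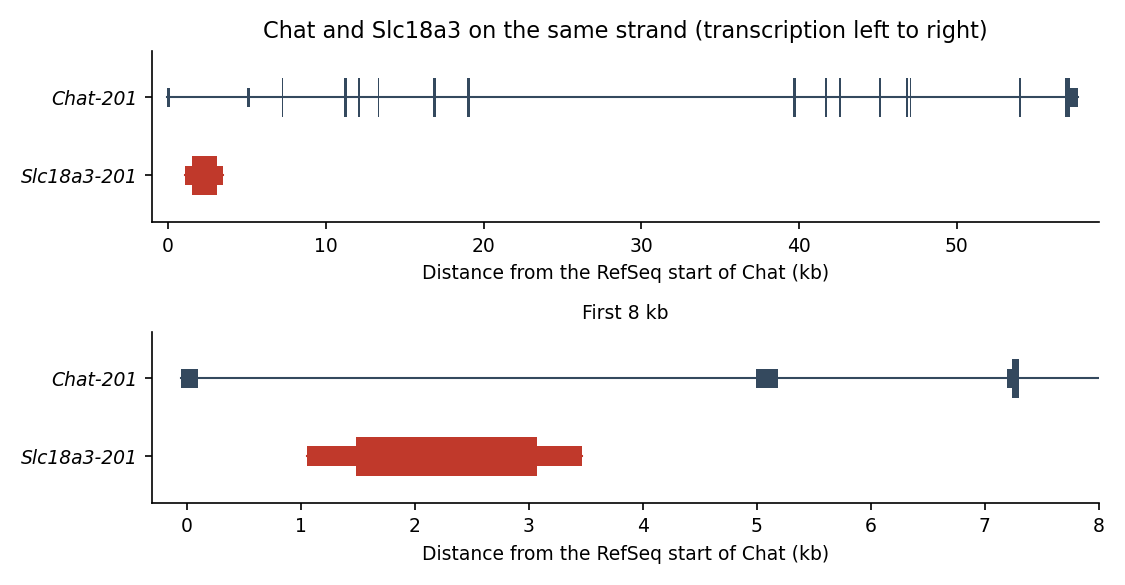
Exon maps of the full-length Chat transcript and of Slc18a3 from GENCODE by distance in kb from the RefSeq start of Chat, with the whole locus above and the first 8 kb below. Thick boxes are coding sequence, thin boxes are untranslated exon and lines are introns; the single Slc18a3 exon lies wholly in the first intron of Chat.

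The cytokine genes differed from each other, with Tslp higher in Spib_KO and Il25 not called. Tslp (gene 53603, chromosome 18, 32815383 to 32819799) had 1706 reads in Spib_KO and 112 reads in WT. This was 99.4 CPM in Spib_KO (95% Poisson interval 94.7 to 104) and 6.22 CPM in WT (5.12 to 7.49). The log2 ratio was 3.99 (95% interval 3.72 to 4.29), or 15.9-fold higher in Spib_KO. Tslp passed the minimum level in both libraries, and 23 of the 10707 measured genes, 0.215%, had a larger ratio. In bulk RNA a change in the number of expressing cells and a change in RNA per cell cannot be told apart.

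Il25 (gene 140806, chromosome 14, 54932695 to 54935837) had 379 reads in Spib_KO and 461 reads in WT. The levels were 22.1 CPM in Spib_KO (19.9 to 24.4) and 25.6 CPM in WT (23.3 to 28.1). Its log2 ratio was -0.21 (-0.41 to -0.01), which was not called, and 28.6% of measured genes had a ratio further below. The counting interval leaves room for a decrease of 0.41 on the log2 scale and excludes a 2-fold difference in either direction, counting error alone considered. Among the reads of the 2 cytokine genes together, Tslp took 81.8% in Spib_KO (exact Clopper-Pearson 95% interval 80.1% to 83.5%) and 19.5% in WT (16.4% to 23.0%). This share is set within each library and does not depend on how the libraries are scaled.

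Of the acetylcholine pair, the enzyme gene was at the same level in both libraries to within counting error and the transporter gene was higher in Spib_KO. Chat had 3694 reads in Spib_KO and 3851 reads in WT, or 215 CPM in Spib_KO (208 to 222) and 214 CPM in WT (207 to 221). Its log2 ratio was 0.01 (-0.06 to 0.07), and 98.3% of measured genes had a ratio further from 0. Slc18a3 had 185 reads in Spib_KO and 72 reads in WT, or 10.8 CPM in Spib_KO (9.28 to 12.5) and 4.0 CPM in WT (3.13 to 5.04). Its log2 ratio of 1.42 (1.03 to 1.84), or 2.68-fold, was just past the rule, and 1.93% of measured genes had a larger one. Slc18a3 counted as measured through the Spib_KO library alone, since its level in WT was under the minimum. The call was lost when ratios were centred on the tuft cell markers (1.37) and when the WT library was thinned to the depth of Spib_KO (1.39).

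Set against its host gene, Slc18a3 took 4.77% of the reads of the pair in Spib_KO (exact Clopper-Pearson 95% interval 4.12% to 5.49%) and 1.84% in WT (1.44% to 2.31%). The deposited counts of all 4 genes were whole numbers in both libraries.

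**Figure D2:**
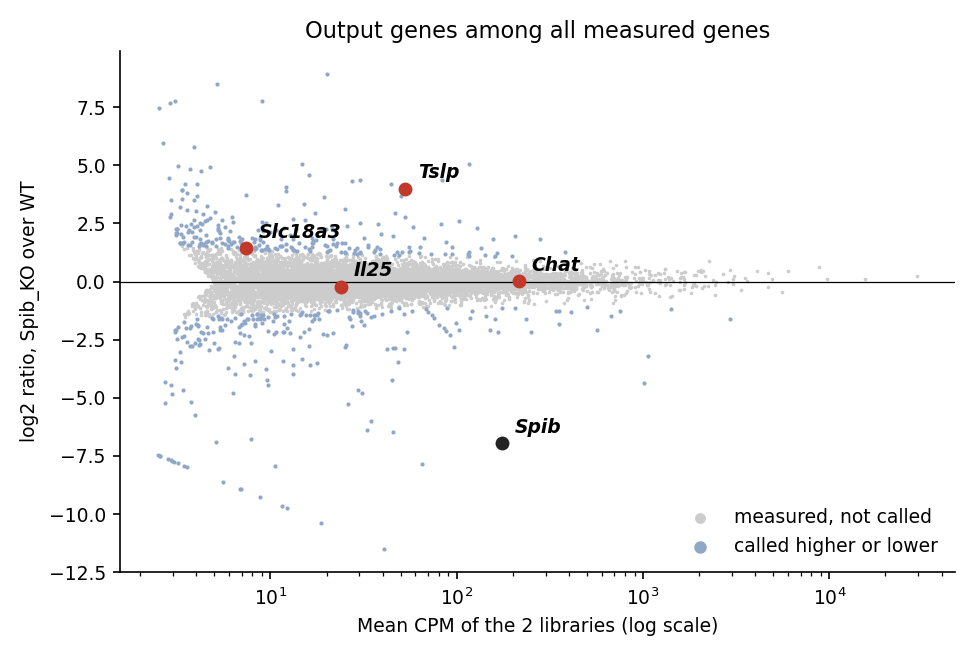
The log2 ratio, Spib_KO over WT, against the mean CPM of both libraries on a log axis for the 10707 measured genes, with called genes in blue and genes with 0 reads in a library placed by the prior count. Tslp lies at 3.99 and Slc18a3 at 1.42, above the bulk of genes, while Il25 at -0.21 and Chat at 0.01 lie within it; Spib lies at -6.95.

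Levels can be compared between genes per unit of transcript length, for which the deposited TPM values were used. In Spib_KO the order was Tslp at 134 TPM (counting interval 128 to 141), Chat at 104 TPM (100.2 to 107), Il25 at 32.2 TPM (29.0 to 35.6) and Slc18a3 at 6.12 TPM (5.27 to 7.07). In WT the order was Chat at 104 TPM (101 to 108), Il25 at 38.3 TPM (34.9 to 42.0), Tslp at 8.61 TPM (7.09 to 10.4) and Slc18a3 at 2.30 TPM (1.80 to 2.90). No pair of neighbours in either order had overlapping counting intervals, and the spread between mice is not known from 1 library. Among all 17134 genes Tslp ranked 1090th by TPM in Spib_KO and 7257th in WT. Chat ranked 1353rd in Spib_KO and 1377th in WT, and Il25 3513th in Spib_KO and 3124th in WT. Slc18a3 ranked 8111th in Spib_KO and 10241st in WT. The TPM of Tslp was 4.17 times that of Il25 in Spib_KO, while in WT the TPM of Il25 was 4.45 times that of Tslp. The TPM of Chat was 16.9 times that of Slc18a3 in Spib_KO and 45.3 times in WT.

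**Figure D3:**
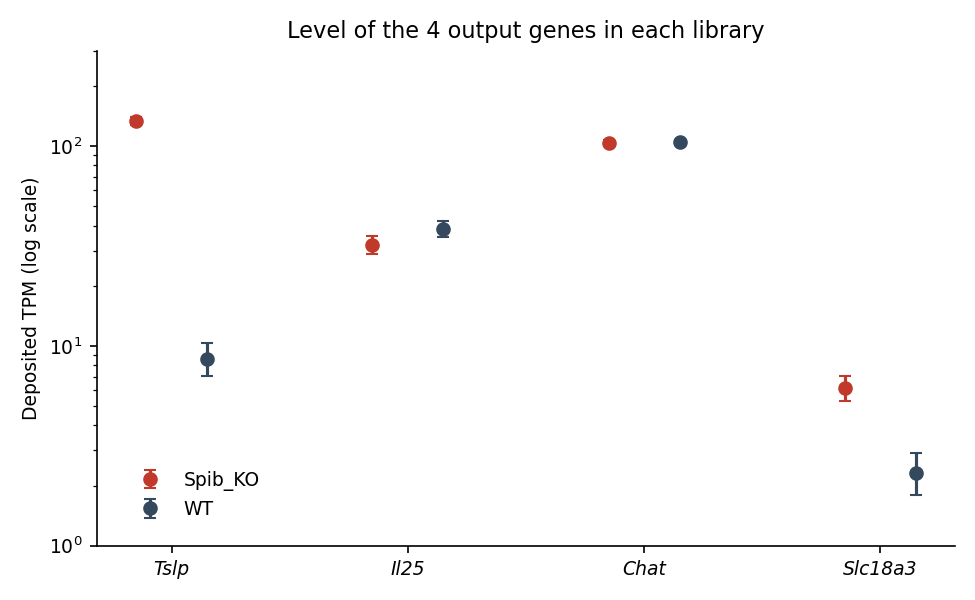
Deposited TPM on a log axis of the 4 genes in the Spib_KO library (red, left of each pair) and the WT library (dark, right), where bars are 95% Poisson counting intervals and there are no replicates. Tslp stands at 134 TPM in Spib_KO and 8.61 TPM in WT and Slc18a3 at 6.12 TPM in Spib_KO and 2.30 TPM in WT, while both points of Chat lie at 104 TPM.

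Few of the genes next to the members were abundant enough to be compared. Wdr36, the nearest protein-coding gene beyond the end of Tslp at a gap of 17388 bases, had 671 reads in Spib_KO and 602 reads in WT, a log2 ratio of 0.22. Tslp overlaps the long non-coding RNA gene 4930455D15Rik in RefSeq, which had no matching row in the count table. The counts of Tslp do not separate its protein-coding transcript from the non-coding form that annotations also list. Near Il25, Cmtm5, which starts 338 bases past its end, had 4 reads in Spib_KO and 24 reads in WT. Efs, on the other side at 5906 bases, had 33 reads in Spib_KO and 53 reads in WT, and Slc22a17 beyond it had 32 reads in Spib_KO and 17 in WT. None of these 3 reached the minimum. Ercc6, a DNA repair gene that lies 47381 bases upstream of Chat, had 45.4 CPM in Spib_KO and 58.4 CPM in WT, a log2 ratio of -0.36 (-0.50 to -0.23). Prrxl1 beyond it had 0 reads in Spib_KO and 25 in WT, and on the other side of Chat 1700024G13Rik had 11 reads in Spib_KO and 4 in WT. Both were under the minimum, so Wdr36 and Ercc6 were the only neighbours that could be called apart from Chat and Slc18a3 themselves, and neither was.

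Other cytokines that epithelial cells release were mostly scarce, and Tslp was the only measured one called higher. Of 16 genes listed as epithelial alarmins and related cytokines, 13 were in the table and 4 were measured. Beside 2.33% higher and 2.18% lower over all measured genes, Tslp was called higher, Il18 and Il33 lower and Il25 not called. The median log2 ratio of these 4 values, which ran between -2.96 and 3.99, was -0.80, beside 0.01 over all genes, and it was -0.30 with TPM, -0.25 with FPKM, -0.39 without the filter and -0.21 at a minimum of 20 CPM. Il18, a cytokine of the IL-1 family activated by inflammasomes, had 21.9 CPM in Spib_KO and 57.1 CPM in WT, a log2 ratio of -1.38 (-1.56 to -1.21). Il33, a nuclear alarmin that like IL-25 activates group 2 innate lymphoid cells, had 18 reads in Spib_KO and 150 reads in WT, a log2 ratio of -2.96 (-3.78 to -2.28). Il33 counted as measured through WT alone, since its 18 reads in Spib_KO were under the minimum. With TPM, with FPKM and at 20 CPM Il33 was under the minimum, so its call was lost there. The 9 unmeasured genes reached at most 3.44 CPM in Spib_KO and 4.50 CPM in WT, both values those of Il15. Tnf was among them, with 0 reads in Spib_KO and 52 reads in WT. Listed markers of other epithelial cells differed as well. The summed level of 7 Paneth cell markers was 898 CPM in Spib_KO and 2323 CPM in WT, that of 7 goblet cell markers was 1378 CPM in Spib_KO and 2211 CPM in WT, and that of 8 enterocyte markers was 15685 CPM in Spib_KO and 13551 CPM in WT. The enterocyte sum was carried by Fabp1, with 10611 CPM in Spib_KO and 6968 CPM in WT, while 5 of the 8 had a log2 ratio below 0 and the median was -0.39. The part of these cells in the values of Il18 and Il33 was not tested.

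Markers of stromal and myeloid cells, other known sources of Tslp, were scarce or of low level. All 8 stromal markers were in the table and none was measured, with a summed level of 3.67 CPM in Spib_KO, none of them at 0 reads, and 4.95 CPM in WT, where Lum was at 0. Of 6 myeloid markers 5 were in the table, and their sum was 16.7 CPM in Spib_KO, where Csf1r was at 0, and 19.6 CPM in WT. Of these, 2 were measured. Adgre1, a macrophage surface receptor gene, had 230 reads in Spib_KO and 135 reads in WT, a log2 ratio of 0.83 (0.52 to 1.15) that was not called, and Lyz2, a lysozyme gene of myeloid cells, was called lower at -3.47. Lyz2 counted as measured through WT alone, with 9 reads in Spib_KO and 110 reads in WT. The part of stromal and myeloid cells in the level of Tslp was not tested.

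The receptors for both cytokines differed in abundance. Crlf2, which encodes the specific chain of the TSLP receptor, had 25 reads in Spib_KO and 55 in WT, and Il7r, its shared chain, had 4 reads in Spib_KO and 0 in WT. Of 8 genes for the TSLP receptor and its signalling 6 were measured, with a median log2 ratio of -0.18. Of the 6, 0 were called, beside 2.33% called higher and 2.18% lower over all measured genes. Stat3, a signal transducer, was nearest to a call, at 73.7 CPM in Spib_KO and 138 CPM in WT (-0.90, interval -1.0 to -0.80). The kinase gene Jak2 had 81.3 CPM in Spib_KO and 56.8 CPM in WT, a log2 ratio of 0.52. Stat5a and Stat5b, which act after the TSLP receptor, had log2 ratios of -0.44 and 0.46. Jak1 stood at -0.04.

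Of 7 genes for the IL-25 receptor and its signalling 5 were measured, with a median of -0.45. Of the 5, 0 were called, beside 2.33% called higher and 2.18% lower over all measured genes. Il17rb, the specific chain of the IL-25 receptor and itself a tuft cell gene, had 302 CPM in Spib_KO and 413 CPM in WT, a log2 ratio of -0.45 (-0.50 to -0.40). The shared chain Il17ra had 36.7 CPM in Spib_KO and 35.6 CPM in WT, a log2 ratio of 0.05. Traf6, an adaptor ubiquitin ligase, and Il17rc, a chain of the IL-17A receptor, had log2 ratios of -0.62 and -0.55. Traf3ip2, the adaptor Act1 of this receptor family, was at 0.00.

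Genes known to regulate Tslp in other epithelia went both ways. None was called, beside 2.33% called higher and 2.18% lower over all measured genes. Of 16 genes of the NF-kB pathway and of vitamin D and retinoid receptors 14 were measured, 7 had a log2 ratio above 0 and 7 below, and the median was 0.00. Values ran between -0.58 for Rela, an NF-kB subunit with 39.3 CPM in Spib_KO and 58.7 CPM in WT, and 1.21 for Rel. Rel, another NF-kB subunit, had 173 reads in Spib_KO and 78 reads in WT, and its interval of 0.82 to 1.62 reached below the 2-fold bound. Tnfaip3, which encodes the NF-kB inhibitor A20, had 90.7 CPM in Spib_KO and 49.1 CPM in WT, a log2 ratio of 0.88 (0.77 to 1.01), and the NF-kB subunit gene Nfkb1 had 27.2 CPM in Spib_KO and 16.9 CPM in WT (0.69). Vdr, the vitamin D receptor gene, had 218 CPM in Spib_KO and 296 CPM in WT (-0.44). Ikbkb, a kinase gene that activates NF-kB, had 89.4 CPM in Spib_KO and 118 CPM in WT (-0.40), and the inhibitor gene Nfkbia had 443 CPM in Spib_KO and 435 CPM in WT (0.03).

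Upstream of IL-25 in tuft cells lie receptors of luminal signals and the taste-type cascade that ends at the channel Trpm5. Of 15 such genes and lineage or feedback factors 14 were measured, and the median was -0.23. Among these, 1 was called higher and 3 lower, beside 2.33% and 2.18% of all measured genes. Sucnr1, the receptor for succinate, had 75.6 CPM in Spib_KO and 35.3 CPM in WT, a log2 ratio of 1.10 (0.96 to 1.24), just under the rule. Trpm5 had 1964 CPM in Spib_KO and 2891 CPM in WT, a ratio of -0.56. Plcb2, the phospholipase between G protein and calcium release, and Itpr2, a calcium release channel gene, were called lower at -1.09 and -1.50. Vmn2r26, a vomeronasal receptor gene, was also called lower with 0 reads in Spib_KO and 251 reads in WT, so it was measured through WT alone. Tas1r3, a taste receptor gene, overlaps Dvl1 and was the 1 called higher, at 13.8 CPM in Spib_KO and 3.72 CPM in WT (1.88). Tas1r3 counted as measured through Spib_KO alone, since its level in WT was under the minimum. Pou2f3, the factor that specifies tuft cells, and Gfi1b, another lineage factor, had log2 ratios of 0.17 and 0.29.

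Around Chat, no measured gene for the supply of acetyl-CoA was called. Of 7 genes for acetylcholine synthesis and storage 5 were measured, with a median of -0.04. Among these, 1 was called higher (Slc18a3) and 0 lower, beside 2.33% and 2.18% of all measured genes. Acly, which makes cytosolic acetyl-CoA from citrate, had 130 CPM in Spib_KO and 154 CPM in WT, a log2 ratio of -0.25 (-0.33 to -0.17). Pdha1 and Dlat, subunits of the mitochondrial pyruvate dehydrogenase complex, had log2 ratios of -0.14 and -0.04. Slc10a4, a carrier of synaptic vesicles, had 3 reads in Spib_KO and 1 in WT. The high-affinity choline transporter gene Slc5a7 was listed but was not in the table.

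Among 11 choline carriers 6 were measured, with a median of -0.02. Of the 6, 0 were called higher and 1 lower, beside 2.33% and 2.18% of all measured genes. The called gene was Slc44a2, of the choline transporter-like family, with 109 reads in Spib_KO and 467 reads in WT. These were 6.35 CPM in Spib_KO and 26.0 CPM in WT, a log2 ratio of -2.03 (-2.34 to -1.73). The most abundant carrier of the list, Slc44a4, had 185 CPM in Spib_KO and 194 CPM in WT, a ratio of -0.06. Slc44a3 and Slc44a1 of the choline transporter-like family had ratios of 0.17 and -0.05. Flvcr1, a choline importer gene, had 113 reads in Spib_KO and 70 reads in WT, a ratio of 0.76 (0.32 to 1.21) that was not called.

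Of 8 genes that use choline in phospholipid or betaine synthesis 6 were measured, with a median of -0.15. Of the 6, 0 were called, beside 2.33% called higher and 2.18% lower over all measured genes. Chka, a choline kinase gene, had 84.6 CPM in Spib_KO and 130 CPM in WT (-0.62), while the other choline kinase gene Chkb had 237 CPM in Spib_KO and 241 CPM in WT (-0.02). Chdh, which oxidises choline, stood at -0.32 and Cept1, a phosphotransferase, at 0.05.

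Enzymes that break down acetylcholine were present at modest levels. Bche, butyrylcholinesterase, had 104 CPM in Spib_KO and 107 CPM in WT, a log2 ratio of -0.04 (-0.13 to 0.05). Ache, acetylcholinesterase, had 110 reads in Spib_KO and 134 reads in WT, a ratio of -0.22 (-0.59 to 0.16). Colq, the collagen tail that anchors acetylcholinesterase, had 353 reads in Spib_KO and 173 reads in WT, a ratio of 1.10 (0.83 to 1.37), above 2-fold as an estimate but not by its interval. None of the 3 was called, beside 2.33% called higher and 2.18% lower over all measured genes.

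Receptors for acetylcholine were scarce in the sorted cells. Of 21 listed subunit and muscarinic receptor genes 10 were in the table and 1 was measured. It was Chrna1, a nicotinic subunit gene, with 108 reads in Spib_KO and 84 reads in WT, a ratio of 0.43 that was not called. The 9 others in the table reached at most 3.50 CPM in Spib_KO and 4.45 CPM in WT, both for Chrnb1. Muscarinic receptor gene Chrm3 had 1 read in Spib_KO and 5 reads in WT.

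**Figure D4:**
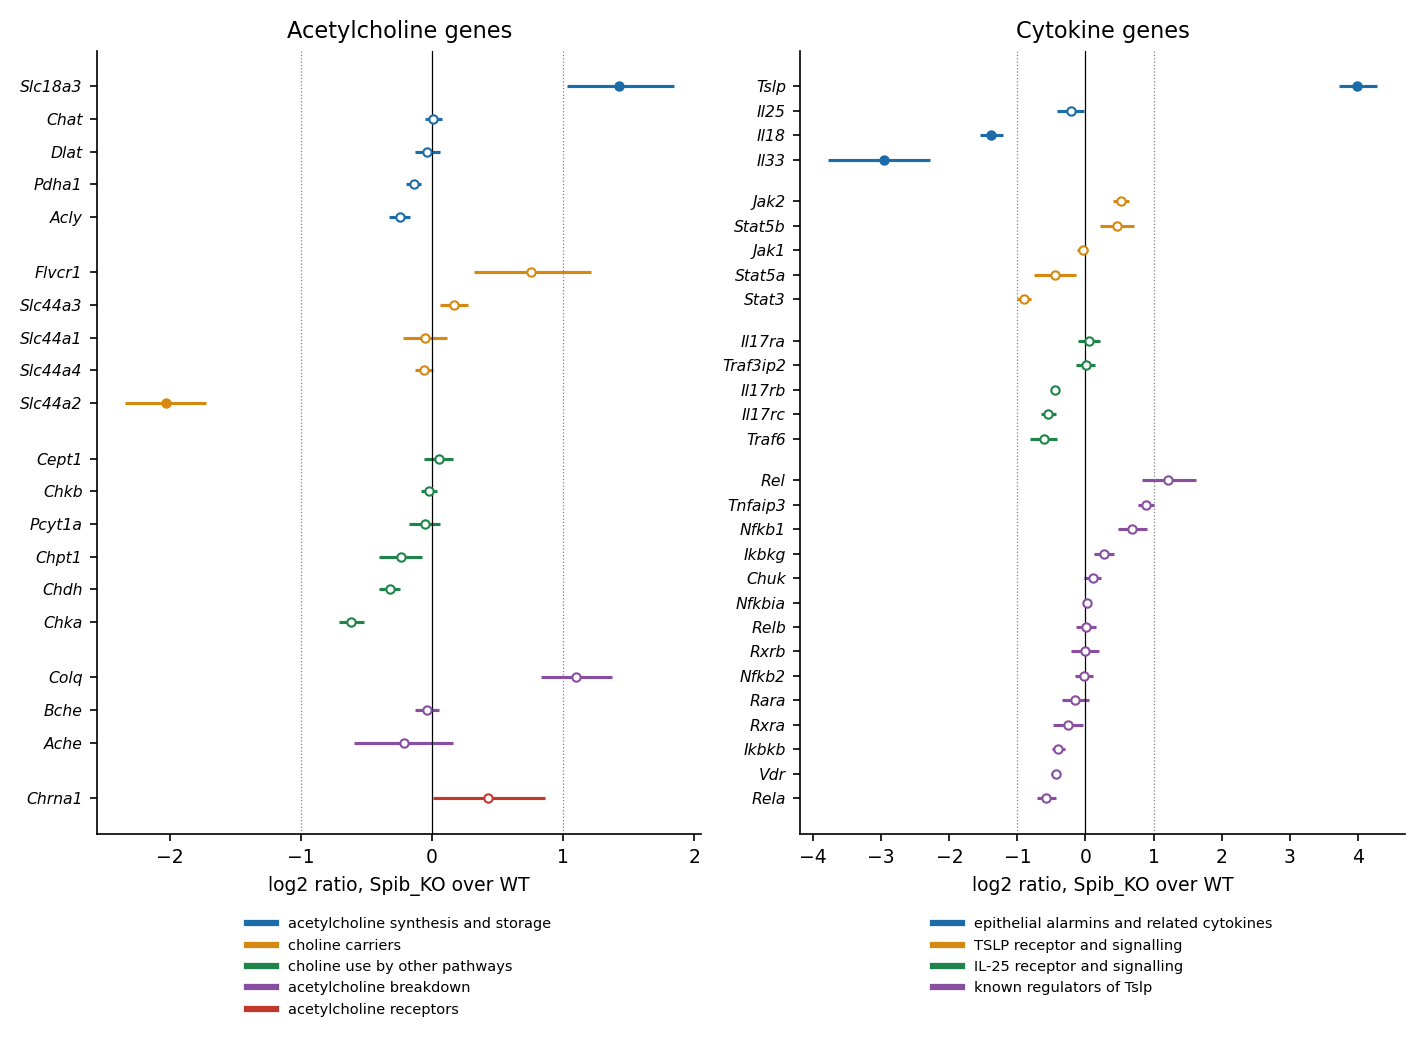
The log2 ratio, Spib_KO over WT, of measured genes of 9 lists around acetylcholine (left) and the cytokines (right), coloured by list, with 95% counting intervals as bars and dotted lines at 2-fold. Filled points were called: Slc18a3 and Slc44a2 at 1.42 and -2.03 on the left, and Tslp, Il18 and Il33 at 3.99, -1.38 and -2.96 on the right.

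Markers of neurons and lymphocytes, other cells known to express Chat or Slc18a3, and of enteroendocrine cells were found at unequal levels. Of 10 enteric neuron markers 7 were in the table and none was measured, and their summed level was 1.05 CPM in Spib_KO, where 3 were at 0 reads, Tubb3 and Uchl1 among them, and 6.17 CPM in WT, where none was at 0. Of 6 B cell markers 5 were in the table, with a sum of 2.39 CPM in Spib_KO, where Cd79a was at 0, and 5.83 CPM in WT. Of 10 T cell and intraepithelial lymphocyte markers 9 were in the table and 4 were measured. All 4 were called lower, beside 2.18% of all measured genes. Each of the 4 counted as measured through WT alone, since its level in Spib_KO was under the minimum. A marker that scarce in Spib_KO could be measured only where WT was high. The 9 summed to 6.35 CPM in Spib_KO, where Cd3d was at 0, and to 49.7 CPM in WT. The 10 enteroendocrine markers summed to 576 CPM in Spib_KO, where Gcg and Tph1 were at 0, and to 543 CPM in WT. Sct, the secretin gene, made up 533 CPM of that sum in Spib_KO and 404 CPM in WT. Of the 10 enteroendocrine markers 8 were measured. Among these, 1 was called higher and 5 lower, beside 2.33% and 2.18% of all measured genes. The 5 called lower counted as measured through WT alone, and the 1 called higher through Spib_KO alone. The filter thus admitted each of them through the library where it was high. The part of any of these cells in the levels of Chat and Slc18a3 was not tested.

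The other secreted outputs of tuft cells are lipids, and of 8 genes for their synthesis 8 were measured, with a median of 0.16. Among these, 1 was called higher and 0 lower, beside 2.33% and 2.18% of all measured genes. The called gene was Ptgs2, the inducible cyclooxygenase, with 51.5 CPM in Spib_KO and 9.06 CPM in WT, a log2 ratio of 2.5 (2.26 to 2.76). The leukotriene genes Alox5, Alox5ap and Ltc4s had ratios of 0.09, 0.14 and 0.10, and Ptgs1 had one of 0.18.

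The measured genes whose levels in the 2 libraries were closest to each member were found by the distance in log2 CPM over both libraries. For Tslp these were Btbd16, Prss53 and Cpe, at distances of 0.22, 0.49 and 0.74. Btbd16 had 92.8 CPM in Spib_KO and 7.11 CPM in WT, and Cpe, a prohormone-processing carboxypeptidase gene, 160 CPM in Spib_KO and 7.61 CPM in WT. For Slc18a3 they were Cd99l2, Wdr19 and Rpap2, at distances of 0.02 to 0.06. For Il25 they were Sike1, Poc1b and Mogs and for Chat Cdk2ap2, Mark2 and Tcf25, all within 0.04. The nearest gene to Tslp was thus further away than any of the 3 listed for each other member.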

How the data were processed

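Per the labels' protocols, the RNA was a TRIzol extract, its cDNA was amplified in the SMART-Seq manner, and a transposase made the libraries. HISAT and Bowtie2 2.2.3 and the mouse build mm10 are named in the submitters' processing notes; the counting program is not given in the sources used here. The authors deposited an expected count (18.6% of Spib_KO and 19.0% of WT values not whole), a TPM and an FPKM value per gene and library, per the file headers.

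Counts were rounded and scaled with TMM (edgeR 4.0.16, R 4.3.3) to effective totals of 17161039 for Spib_KO and 17996059 for WT. Log2 ratios used a prior count of 0.5, and their intervals are exact conditional binomial intervals. Calculations used Python 3.11.15 with scipy 1.17.1. The calling rule was checked on simulated counts that held counting error only. That check cannot show how the rule fares with spread between mice or amplification noise. With 1 library per group no test was made. The members, 11 pathway lists and 11 marker lists were chosen with earlier results of these data known. The genes named were the 4 members, every called and up to 4 abundant measured members of each list, the nearest neighbours and the 3 genes closest in level; some list genes are not reported here, and a few others in the lists (such as Stat5a, Stat5b, Rel, Colq, Rela, Nfkb1, Adgre1, Sct, Flvcr1, Sucnr1, Gfi1b, Tnf and Chrm3) were named after their values were seen. Coordinates and promoter letters are from RefSeq on GRCm38.p6 (the build of mm10), where Chat and Slc18a3 matched the promoter table; exons are from GENCODE. Alternatives were DESeq2 1.42.0 size factors and other scalings, priors, filters, thinning, TPM and FPKM.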

Additional observations from a re-analysis of the deposited data

How the results depend on the processing

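Tslp was called higher under all 11 alternatives, with log2 ratios of 3.94 to 4.0 from counts and 3.77 to 3.94 from TPM or FPKM. Il25 (-0.27 to -0.20) and Chat (-0.04 to 0.02) were called under none, and the sign of Chat changed under some. The call of Slc18a3 was lost with the tuft markers centred (1.37), with thinning (1.39) and with FPKM (1.05 and, with an added 0.1, 1.36), since FPKM was under the minimum of 5 in both libraries; its ratio stayed above 1 under all 11. At a minimum of 20 CPM and at a 4-fold bound, settings outside these 11, Slc18a3 was not called either. Its share of the reads of the pair in Spib_KO was 5.58% of TPM, as TPM divides by length. Genes called higher and lower numbered 250 and 233, and 595 and 716 without the filter, 101 and 106 at 20 CPM, 425 and 419 by the point estimate and 65 and 88 at a 4-fold bound, as each rule admits more or fewer genes; FPKM gave 165 higher, and the cause was not tested. Of 140 list medians under alternatives 127 moved by less than 0.1 and 10 changed sign, in 2 lists (acetylcholine breakdown and regulators of Tslp). Many of the 127 could not have moved further. The point estimate and the 4-fold bound change calls and not medians. Other scalings shifted all ratios by only -0.012 to 0.009, and centring on tuft markers by -0.053. Lower calls among the alarmins fell to 1 with TPM, FPKM and 20 CPM, where Il33 was under the minimum, and at the 4-fold bound, where Il18 was not called. No paired analysis was possible because each genotype had 1 library. At this depth 3 reads are 0.175 CPM in Spib_KO and 0.167 CPM in WT.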
